A study of Homo sapiens with 2 samples.

Results

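Retained-intron transcripts are RNAs of a gene that the GENCODE annotation lists as keeping intron sequence that other transcripts of the gene splice out. In the HepG2 libraries described here, 2061 of the 26186 retained-intron transcripts matched in the deposited table had a mean of at least 2 TPM (transcript abundance, corrected for length and scaled to the same total in each library) over both libraries. These 2061 transcripts, the members below, were chosen by that mean, so their abundance is given as a description. They lay in 1443 genes, and the whole table held 184844 transcripts. Each member was followed by its share, its TPM as a percentage of the summed TPM of the matched transcripts of its gene, and by the summed TPM of the protein-coding transcripts of that gene, called the coding sum. Where 2 values of a transcript are given together, the first is without and the second with doxycycline (Dox).

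HepG2 is a human liver cancer cell line, and both libraries came from HepG2 cells carrying a Dox-inducible cassette for SAMD4B, an RNA-binding protein of the Smaug family known as a repressor of bound mRNAs. The library without Dox came from cells grown without the inducer, and the library with Dox from cells given Dox for 48 h, as their titles state. The dose, 1 µg/ml, is not in the titles. The treatment field of the record lists Dox for both samples, so it conflicts with the title of the first, and the titles were followed. Cells of both groups grew in EMEM with serum, and polyA RNA was sequenced. The labels do not say whether the line is 1 clone or a pool, and cells given Dox without the cassette were not analysed here, so Dox and SAMD4B cannot be told apart. With 1 library per group no test was possible, and every difference below is a difference between these 2 libraries.

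Intron retention leaves an intron in an otherwise processed RNA. Such RNAs are often held in the nucleus, or, where they reach the cytoplasm, end in a premature stop codon and can be degraded by nonsense-mediated decay. Genes of splicing regulators, such as the SR proteins and the CLK kinases that phosphorylate them, are known for introns of this kind. The annotation class is wider than the term: it includes short, incomplete transcripts that end inside an intron without spanning it.

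For the coding sequence, a kept intron matters through its length, its splice sites and the first stop codon it brings into frame. The introns below were chosen because each lies whole inside an exon of a member described later and between coding exons of a protein-coding transcript. They are read from the GENCODE 29 transcript sequences (GRCh38), 5′ to 3′ on the strand of the gene, with the first 2 bases, the last 2 bases and the first in-frame stop codon in capitals.
EEF1A1 intron of 83 nt, chr6:73518849-73518931, minus strand: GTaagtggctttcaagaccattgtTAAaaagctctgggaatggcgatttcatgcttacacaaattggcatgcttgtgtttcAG
GNPTG intron of 79 nt, chr16:1352160-1352238, plus strand: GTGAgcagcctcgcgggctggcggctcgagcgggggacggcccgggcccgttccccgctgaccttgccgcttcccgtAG
FDPS intron of 102 nt, chr1:155318754-155318855, plus strand: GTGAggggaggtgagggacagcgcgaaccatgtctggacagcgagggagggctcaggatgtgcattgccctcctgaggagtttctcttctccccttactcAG
THOC2 intron of 77 nt, chrX:123623710-123623786, minus strand: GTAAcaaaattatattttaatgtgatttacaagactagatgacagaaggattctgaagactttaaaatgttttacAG
TRA2A intron of 176 nt, chr7:23505570-23505745, minus strand: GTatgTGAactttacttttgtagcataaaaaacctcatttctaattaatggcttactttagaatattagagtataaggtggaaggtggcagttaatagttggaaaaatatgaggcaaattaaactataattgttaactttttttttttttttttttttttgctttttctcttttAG
HNRNPH1 intron of 92 nt, chr5:179616959-179617050, minus strand: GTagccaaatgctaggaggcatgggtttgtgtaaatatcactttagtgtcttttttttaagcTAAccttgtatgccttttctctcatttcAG
PTBP1 intron of 83 nt, chr19:804209-804291, plus strand: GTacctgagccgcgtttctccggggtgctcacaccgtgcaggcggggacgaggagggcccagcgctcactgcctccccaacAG
All 7 begin with GT and end with AG. In GNPTG, FDPS and THOC2 the stop begins 1 base into the intron, and overlaps the GT itself. In TRA2A it begins after 5 bases, in EEF1A1 after 24 and in HNRNPH1 after 62. The PTBP1 intron holds no stop in its frame.

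CLK1, a kinase of SR proteins, gave the 1 member with a whole intron among the 4 members of SR protein kinase genes. It holds introns 3 and 4 of the 12 introns of the coding transcript, on either side of exon 4. Their splice sites are printed with 3 exon bases and 6 intron bases at the donor, and 20 intron bases and 3 exon bases at the acceptor, with the outer intron dinucleotides in capitals.
CLK1 intron 3 donor, chr2:200860216-200861237, minus strand: gggGTatga
CLK1 intron 3 acceptor: cgcccacttgacgtttccAGaag
CLK1 intron 4 donor, chr2:200859747-200860124, minus strand: gatGTatag
CLK1 intron 4 acceptor: gatttatttctctcttttAGatg
Intron 3 is 1022 nt long and reaches an in-frame stop after 3 bases, and intron 4 is 378 nt long and reaches one after 53.

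The libraries carried the genes that mark HepG2 and differed 1.28-fold in depth. The hepatocyte-lineage genes AFP (13406 and 12140 TPM), APOA1 (2760 and 2184) and ALB (445 and 407) were abundant. The leukocyte markers PTPRC and CD3E and the endothelial marker VWF were at 0 in both, and the fibroblast markers COL1A1, COL1A2, DCN and LUM were all under 0.4 TPM. PECAM1 (4.57 and 4.55 TPM) and CD68 (10.7 and 11.3), also on the endothelial and leukocyte lists, were detected. The steps of low TPM values gave an estimated 18512396 fragments without Dox and 23730679 with Dox on transcripts of at least 600 nt, so 1 fragment on a 600 nt transcript is worth about 0.229 and 0.183 TPM. The coding sum of SAMD4B was 34.1 and 251 TPM, in the direction of the titles.

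Members took a small and nearly equal part of both libraries. They summed to 37176.5 and 36427.7 TPM, or 3.72% and 3.64% of each library. A few transcripts carried much of it: the top 20 held 48.5% and 49.6% of the members' TPM, and 8 of those 20 belong to cytosolic ribosomal protein genes. Above a mean of 10 TPM there were 437 members, above 100 there were 37, and the median was 4.08 TPM. In bulk RNA, a lower value in fewer cells and a lower value per cell cannot be told apart.

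Just inside the threshold stood PIH1D1 ENST00000595074 with 1.98 and 2.02 TPM, and POLG ENST00000526671 with 1.47 and 2.54. Just outside stood PCGF1 ENST00000475863 with 1.56 and 2.44, and MST1 ENST00000484269, listed at 0 and at 4.0. The mean let in 482 members that reached 2 TPM in 1 library only, and the other 1579 reached it in both. Below the threshold lay 12119 retained-intron transcripts above 0, and 12006 were at 0 in both libraries.

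The most abundant member belonged to EEF1A1, the elongation factor that brings aminoacyl-tRNA to the ribosome. ENST00000488500, 792 nt long, stood at 4608 and 4586 TPM, which made 97.3% and 94.3% of the matched TPM of its gene, against a coding sum of 69.7 and 72.9 TPM. It contains the 83 nt intron printed above, and 10.5% of its bases lie outside every coding exon. A second EEF1A1 member, ENST00000490569, was at 40.2 and 183 TPM, so its share was 0.848% and 3.77%. The main member was level between the libraries and the second was higher with Dox. EEF1A1 has near-identical processed pseudogenes, and fragments that fit several copies are divided by the quantifier, so its values are uncertain.

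The table also held 23046 transcripts without a match in GENCODE 29, with 6.73% and 6.66% of the TPM. The most abundant of these stood at 7068 and 7393 TPM, above every member, and 8 had a mean of at least 1000 TPM. They were given to no gene, so a share printed here would be lower if an unmatched transcript belonged to that gene.

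Ribosomal protein genes supplied most of the next ranks. RPL14 ENST00000479563 was at 2106 and 1989 TPM without and with Dox, a share of 89.5% and 89.6%. RPS23 ENST00000504293 was at 1632 and 1670 TPM, a share of 36.7% and 38.1%. RPL4 had 5 members with a summed share of 81.4% and 81.2%, led by ENST00000564439 at 1421 and 1389 TPM. Each kept nearly the same share in both libraries. RPL11 ENST00000482370 stood at 990 and 869 TPM, a share of 41.5% and 39.6%. Over all cytosolic ribosomal protein genes there were 81 members in 43 genes, 44 of them with a whole intron, and their median share was only 0.259% without Dox and 0.245% with Dox.

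SLC2A1, the glucose transporter GLUT1, and FN1, fibronectin, completed the 8 most abundant. SLC2A1 ENST00000415851 was at 722 and 1375 TPM. Its coding sum was 212 and 367 TPM, so both were higher with Dox and the share was 61.2% and 65.1%. FN1 ENST00000494446 was at 1085 and 877 TPM, with a coding sum of 2151 and 2145 and a share of 32.8% and 28.5%. Counted in estimated fragments, where a long mRNA weighs more, the same FN1 transcript made 2.43% and 1.97% of its gene. Fragment shares, here and below, leave transcripts under 600 nt out of the sum of the gene. A high TPM share of a short transcript is thus a share of molecules as modelled, and it can rest on a small part of the reads of the gene.

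Of the 20 most abundant members, 2 held a whole intron of a coding transcript, and their share differences ran from -4.57 to 5.28 points. In the 75 members at a mean of at least 50 TPM, 1 share was 10 or more points apart (1.33%, against 3.03% of other transcripts at that abundance).

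**Figure D1:**
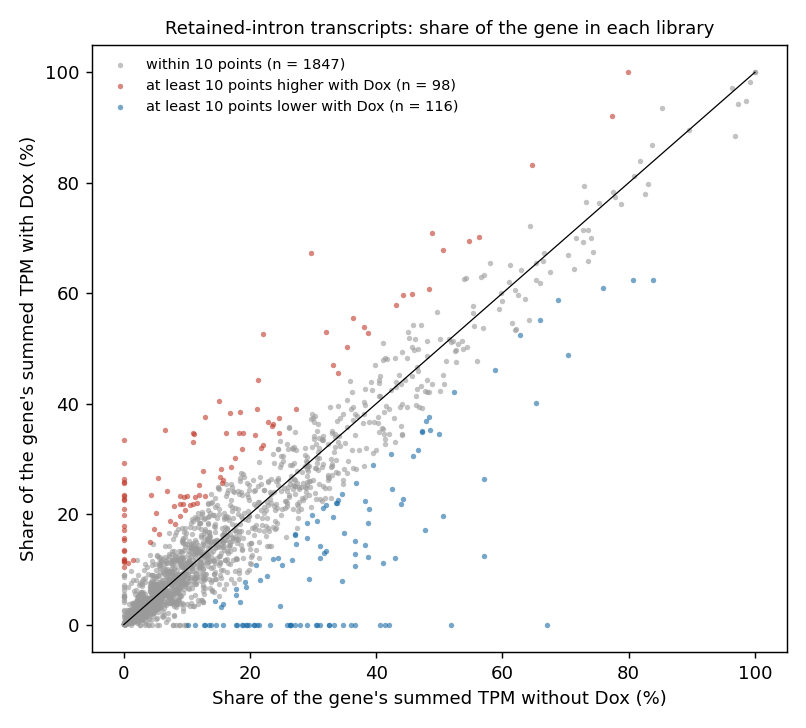
Share of the gene's summed TPM without Dox (x axis, %) and with Dox (y axis, %), 1 point per member (2061), with the line of equality. Most points lie near the line, 98 lie at least 10 points above it and 116 at least 10 points below, and points on an axis are members listed at 0 in 1 library.

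The typical member was a minor transcript of its gene with a similar share in both libraries. The median share was 8.64% without Dox and 8.31% with Dox, with quartiles of 2.83% and 19.9% without Dox and 2.71% and 19.8% with Dox. A mean share under 5% was held by 713 members, and a mean share of at least 50% by 93. The share was within 2 points between libraries for 1023 members (49.6%) and within 5 points for 1503 (72.9%). It was higher with Dox for 1007, lower for 1052 and equal for 2, with a median difference (with minus without Dox) of -0.02 points. Across the 2061 members, Pearson's r of the shares was 0.90 and Spearman's rho 0.82, as a description of transcripts that share 2 libraries.

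A share at least 10 points higher with Dox was found for 98 members (4.75%), where the background over all 22905 transcripts at this abundance was 7.99%. A share at least 10 points lower was found for 116 members (5.63%), against 8.71%. Among the other 20844 transcripts alone, 8.31% were higher and 9.02% lower. Counted by TPM, 115 members (5.58%) were at least 2-fold higher on the log2(TPM + 1) scale, against 4.62% of all transcripts, and 150 (7.28%) at least 2-fold lower, against 4.26%. Among the others these were 4.53% and 3.96%. The minimum is on the mean, so 482 members that reached 2 TPM in 1 library only are in these counts. With at least 2 TPM in each library, 34 members (2.15%) were 2-fold higher and 41 (2.60%) 2-fold lower, against 1.73% and 1.33% of other transcripts. With at least 600 nt, they were 3.50% higher and 3.78% lower, against 3.77% and 3% of other transcripts.

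A 10-point difference needs a mean share of at least 5%, and 1348 members (65.4%) had one, against 87.7% of other transcripts. Of these, 15.9% of the members and 19.8% of the others were 10 points apart. Among transcripts with a mean share of 5 to 25%, it was 13.5% of 958 members and 13.5% of 7066 other transcripts. Between 25 and 50% it was 21.9% of 297 members and 26.9% of 4372 others, and at 50% and over 21.5% of 93 and 21.7% of 6838.

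The counts moved with the scale and with the transcripts counted. In estimated fragments, over the 1402 members of at least 600 nt, 23 shares were at least 10 points higher (1.64%) and 25 lower (1.78%), against 5.91% and 6.31% of other transcripts counted that way. With TPM and the same members the counts were 52 (3.71%) and 55 (3.92%), with transcripts of every length in the sum of the gene. Among other transcripts of at least 600 nt, 8.37% were higher and 8.95% lower. With at least 2 TPM in each library the member counts were 58 (3.67%) and 50 (3.17%), against 6.96% and 7.76% of other transcripts.

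Values of 0 in 1 library were part of these counts. They were seen for 98 members (4.75%), 40 at 0 without Dox and 58 at 0 with Dox, against 2.71% of other transcripts. Their median length was 558 nt, and that of the members above 0 in both was 771 nt. By length, 21.2% of the 132 members of 200 to under 450 nt were at 0 in 1 library, 7.59% of the 527 of 450 to under 600 nt and 1.22% of the 327 of at least 2000 nt. The shortest members were at 0 more often than other transcripts of that length (11%), and those of 450 to under 600 nt were not (8.43%).

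**Figure D2:**
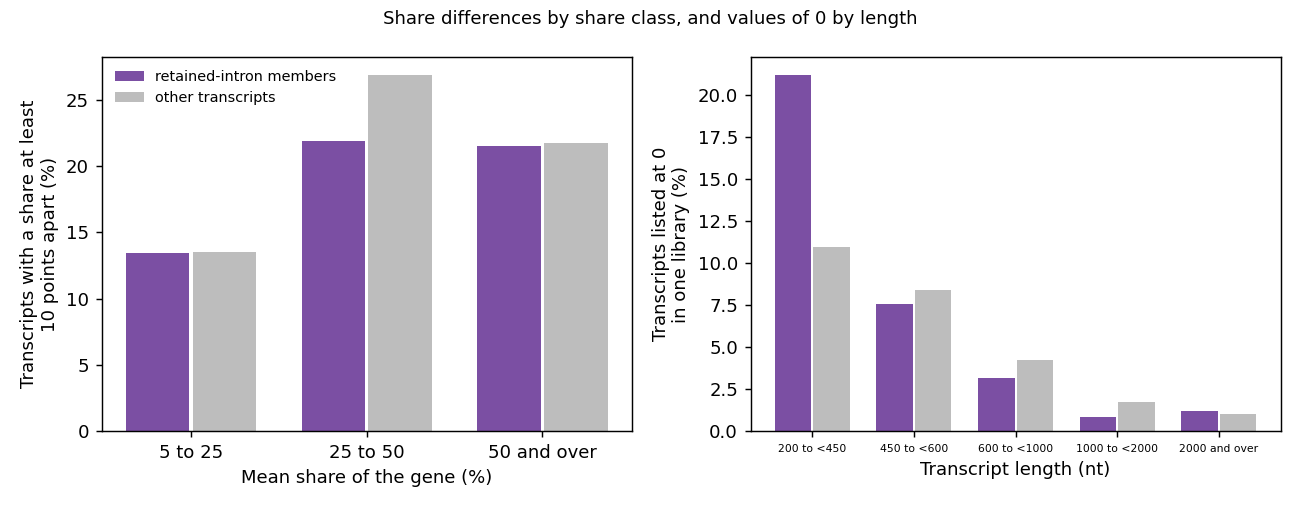
Left, percentage of transcripts with a share at least 10 points apart (y axis) by mean share of the gene (x axis, %, from 5%). Right, percentage listed at 0 in 1 library by length (x axis, nt), for members (purple) and other transcripts (grey): members and others are alike at 5 to 25% (13.5% and 13.5%), and members of 200 to under 450 nt are at 0 in 21.2% of cases against 11%.

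The 6 most abundant members at 0 in 1 library are given beside the coding sums of their genes, as a description, since they were picked for their 0. LRPPRC ENST00000467058 was at 0 without Dox and 20.8 TPM with Dox, with a coding sum of 191 and 210 TPM; LRPPRC stabilises mitochondrial mRNAs. CLPX ENST00000560166, from the gene of the mitochondrial ClpXP unfoldase, was at 23.6 and 0 TPM, with a coding sum of 21.3 and 24.8. PNN ENST00000554902, of a protein associated with spliced mRNA, was at 19.9 and 0, with a coding sum of 135 and 133. These members are 557, 563 and 583 nt long, and none holds a whole intron. ARF5 (19.0 TPM and 0), GLDC (17.9 and 0) and PCM1 (0 and 17.1) complete the 6, with lengths of 566, 553 and 580 nt.

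The summed coding TPM of a gene was steadier than a single retained-intron transcript of it. This says nothing of single coding isoforms: of the protein-coding transcripts at a mean of at least 2 TPM, which have larger shares, 8.23% had a share at least 10 points higher and 9.27% lower. For the 1979 members whose coding sum had a mean of at least 2 TPM, the coding sum was within 1.5-fold for 1858 (93.9%) and the member itself for 1382 (69.8%). The median absolute log2 difference was 0.15 for coding sums and 0.35 for members, which are single transcripts of lower TPM. Both were within 1.5-fold for 1315 members (66.4%). The member alone was higher for 239 and alone was lower for 304. Member and coding sum were both higher for 27, both lower for 14, and in opposite directions for 6 (member higher) and 7 (member lower).

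The log2 differences of member and coding sum were weakly related, with Pearson's r of 0.12 and Spearman's rho of 0.15 over the 1979 members. At a mean of at least 50 TPM, over 74 members, they were 0.37 and 0.40. Member and coding sum share libraries, and the quantifier divides common fragments between them. The median ratio of member to coding sum was 0.122 without Dox and 0.120 with Dox. The member exceeded the coding sum for 149 without Dox and 153 with Dox, with 30 above it only without Dox and 34 only with Dox.

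**Figure D3:**
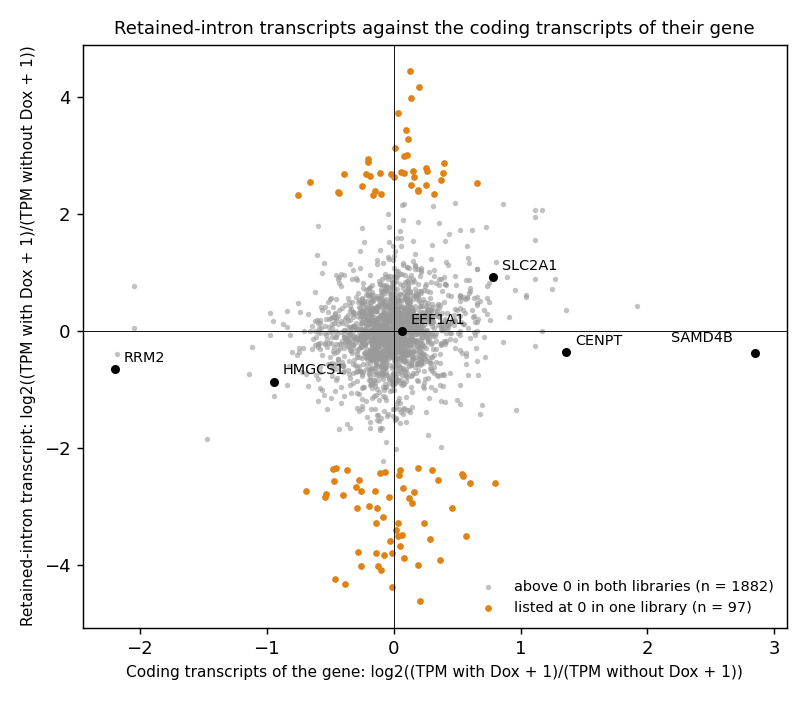
log2((TPM with Dox + 1)/(TPM without Dox + 1)) of the coding sum (x axis) and of the retained-intron member (y axis) for 1979 members; grey, above 0 in both libraries, orange, listed at 0 in 1 library, black, genes named in the text. The cloud is taller than it is wide, with median absolute values of 0.35 for members and 0.15 for coding sums, and SAMD4B, CENPT and RRM2 lie far out along the coding axis.

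In some genes the share differed together with the coding sum. SAMD4B ENST00000596271, a single-exon transcript of 578 nt with 79.2% of its bases outside coding exons, was at 11.8 and 8.81 TPM. Beside a coding sum of 34.1 and 251 TPM, its share was 24.8% and 3.37%. The cassette adds coding SAMD4B RNA, so this share compares RNA of the native gene with RNA of both sources. RRM2, a subunit of ribonucleotide reductase, had its member at 18.2 and 11.2 TPM and its coding sum at 31.5 and 6.10 TPM. Its share was therefore higher with Dox, 36.3% and 55.5%, while its TPM was lower. This member, ENST00000485717, is 573 nt long and has no 31-base word of its own within the gene. Its fragments are thus divided from those of the other RRM2 isoforms by the quantifier. CENPT, a kinetochore protein, had its member ENST00000565157 at 7.04 and 5.30 TPM and its coding sum at 7.15 and 19.9 TPM, a share of 36.6% and 15.1%. Much of that coding difference lay in transcripts listed at 0 without Dox. With Dox, ENST00000561593, ENST00000626059 and ENST00000565114 were at 4.03, 2.81 and 2.65 TPM. The most abundant coding transcript of CENPT, ENST00000440851, was at 7.02 and 9.87 TPM.

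HMGCS1, an enzyme of cholesterol synthesis, was lower with Dox in member and coding sum alike. Its member ENST00000507293 was at 46.4 and 25 TPM, and its coding sum at 236 and 122 TPM. Its share was 15.9% and 16.6%. FDPS, a later enzyme of the pathway, had ENST00000490140, which holds the 102 nt intron printed above, at 28.1 and 14 TPM beside a coding sum of 178 and 133. The FDPS share was 8.64% and 6.31%. The 14 members in 9 genes of cholesterol and fatty acid synthesis summed to 152 and 94.9 TPM, with 1 member at 0 in 1 library. Of the 10 with a mean share of at least 5%, 2 shares were at least 10 points higher and 1 lower, beside 7.27% and 8.61% of all members with such a share.

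Among members above 0 in both libraries in genes of at least 10 TPM, several of the largest increases of the share came in genes whose coding sum was close between libraries. ZFAND2B ENST00000475533, of a zinc finger protein that binds the proteasome, was at 2.90 and 10.2 TPM, with a coding sum of 16.6 and 16.2 and a share of 11% and 33.1%. Its ratio of estimated fragments with Dox to without Dox, scaled for depth, was 3.42 (exact 95% interval 2.27 to 5.31, counting error only). GNPTG ENST00000529957, from the gene of a subunit of the enzyme that tags lysosomal proteins, was at 2.41 and 7.25 TPM, with a ratio of 2.94 (1.82 to 4.95) and a share of 16.8% and 38.3%. GNPTG holds the 79 nt intron printed above. Neither transcript has a 31-base word of its own within the gene, so their fragments are divided from those of other isoforms by the quantifier. The intervals cover the counting of fragments in 2 libraries, and neither that division nor the spread between cultures. Both members were picked for large share differences in these same values, so their intervals are a description and test nothing. This holds also for the intervals of EPHB4, PLXNB2 and DHRS7B below.

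EPHB4 ENST00000478459, of a receptor tyrosine kinase, was at 5.39 and 12.4 TPM, a share of 18.4% and 38.5% and a ratio of 2.25 (1.64 to 3.14). SLC25A10 ENST00000573246, of the mitochondrial dicarboxylate carrier, was at 2.25 and 6.26 TPM, a share of 11% and 34.6%. RECQL5 ENST00000579265, of a DNA helicase, was at 0.90 and 7.55 TPM and had the largest increase under this rule, from 6.56% to 35.2%. RECQL5 is also the shortest of them, at 333 nt. The others were ARL14EP (21.3% to 44.3%), MSTO1 (5.47% to 26.5%), FZR1 (32% to 52.9%), SREBF1 (4.38% to 23.4%) and RRM2. In FZR1, the retained-intron transcripts ENST00000588084 and ENST00000586212 had shares of 13.6% and 8.03% without Dox and were at 0 with Dox. In ARL14EP, a 233 nt processed transcript had a share of 21.3% without Dox and was at 0 with Dox. These transcripts are in the sum of the gene, so their 0 with Dox raises the member's share.

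The largest decreases were of similar size. PLXNB2 ENST00000479701, of a semaphorin receptor, was at 8.95 and 2.92 TPM, a share of 36.7% and 10.6% and a fragment ratio of 0.317 (0.264 to 0.378). Another PLXNB2 member, ENST00000463165, went the other way, from 0 to 7.08 TPM, and the coding sum was 15.1 and 16.3. PLXNB2 was 1 of 7 genes, of the 384 with 2 or more members, with a member at least 10 points higher and another at least 10 points lower. SREBF1, named above for an increase, was also 1 of the 7. This count has no background over other transcripts here. DHRS7B ENST00000346603 was at 6.05 and 1.51 TPM, a share of 47.8% and 17.1% and a ratio of 0.244 (0.163 to 0.358).

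SRPRB, a subunit of the receptor that docks ribosomes at the endoplasmic reticulum, had its member at 21.8 and 10.3 TPM, a share of 83.9% and 62.4%. TMEM120A (34.5% to 7.98%), NUDT22 (50.6% to 19.6%), C16orf89 (38.7% to 12.2%), WDR91 (36.6% to 12.7%) and DBNL (38.2% to 14.4%) were others, beside CENPT. In estimated fragments the shares were 23.8% and 7.29% for PLXNB2, 60.7% and 24.9% for DHRS7B, 8.16% and 26.6% for ZFAND2B, 8.34% and 22.1% for GNPTG, 3.67% and 9.40% for EPHB4, 4.70% and 17.2% for SLC25A10, 11.8% and 3.57% for DBNL, and 38.8% and 21.1% for CENPT. The direction held in these 8, the ones of at least 600 nt, and the differences of EPHB4 and DBNL were under 10 points. Like ZFAND2B and GNPTG, the members of SLC25A10, DBNL and CENPT have no 31-base word of their own within the gene. Nor do those of RRM2 and SREBF1, both under 600 nt. The members of EPHB4, PLXNB2 and DHRS7B have 63, 246 and 340.

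**Figure D4:**
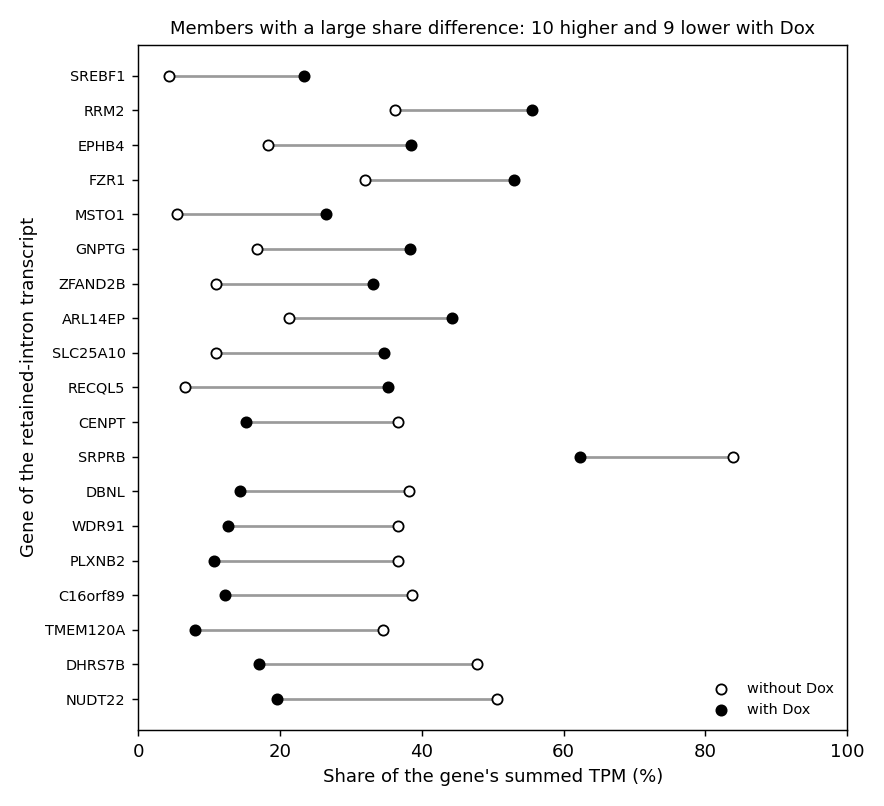
Share of the gene's summed TPM (x axis, %) without Dox (open circles) and with Dox (filled circles) for the 10 members with the largest increase (top) and 9 with a large decrease (bottom), by gene (y axis). RECQL5 spans 6.56% to 35.2% and NUDT22 50.6% to 19.6%; 1 library stands behind each circle.

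Among all 98 members with the higher share, the median log2 difference was 1.01 for the member and -0.10 for the coding sum; in 86 the gene's summed TPM was within 1.5-fold. Among the 116 with the lower share, the medians were -1.32 and 0.07, and 100 genes were within 1.5-fold. These are 87.8% and 86.2%, where the genes of all members were within 1.5-fold in 94.8% of cases. Of the 98 higher members 46 were under 600 nt and 22 were at 0 in 1 library, and of the 116 lower members 61 and 41. Both kinds were thus more frequent than over all 2061 members, where 1402 were of at least 600 nt and 98 (4.75%) were at 0 in 1 library.

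Most members did not contain a whole intron. An intron of a protein-coding transcript of the gene lay whole inside an exon of 553 members (26.8%), and 1508 (73.2%) held none. With introns of any transcript that is not itself annotated as retained intron, a choice made after the data were seen, the count was 649. The members with a whole intron made 0.877% of the library without Dox and 0.880% with Dox and 23.6% and 24.1% of the members' TPM, or 12.6% and 12.7% without the EEF1A1 members. They were longer than the rest (median 1201 against 692 nt) and had lower shares (5.08% and 5.66% against 9.85% and 9.73%).

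Members with a whole intron had fewer large differences. A share at least 10 points higher was found in 18 (3.25%) and lower in 9 (1.63%) of the 553, against 80 (5.31%) and 107 (7.10%) of those without. Only 5 (0.904%) were at 0 in 1 library, against 93 (6.17%). The share was higher with Dox in 294 and lower in 259, with a median difference (with minus without Dox) of 0.04 points. Among those with a mean share of at least 5%, 6.04% of 298 were higher and 3.02% lower, against 7.62% and 10.2% of 1050. Length also differs between these sets, and its part in the counts was not tested.

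The share also went with how much of a member lies in exons of coding transcripts. In the 379 members with under 10% of their bases outside coding exons, the median share was 18.7% and 17.8%, and 8.97% were at least 10 points higher and 12.4% lower. In the 424 with at least 50% outside, it was 4.23% and 4.33%, with 2.59% higher and 1.42% lower. Among those with a mean share of at least 5%, 10.5% of 325 were higher and 14.5% lower in the first set, and 5.64% and 3.08% of 195 in the second. The median part outside coding exons was 33.7% for members at 2 to 5 TPM and 13.3% for those at 50 TPM and over. The most abundant members were therefore mostly exonic sequence, which they share with the mRNA. No 31-base word of their own within the gene was held by 353 members, so no such word tells them from the other listed transcripts of the gene.

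**Figure D5:**
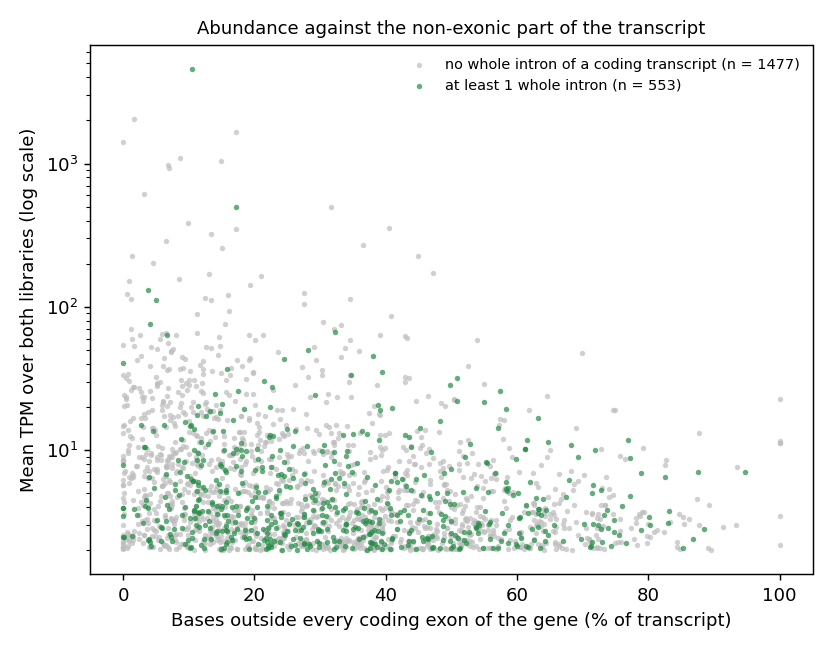
Mean TPM over both libraries (y axis, log scale) against the percentage of the member's bases outside every coding exon of its gene (x axis), for members with a whole intron (green, 553) and without (grey, 1477 with a coding transcript in the annotation). The upper part is filled at the left: members at 50 TPM and over have a median of 13.3% of bases outside coding exons, those at 2 to 5 TPM 33.7%.

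The introns held whole were short. There were 797 distinct ones in 444 genes, from 32 to 4405 nt, with a median of 249 nt, against 846 nt for the 6403 other introns of the coding transcripts of these genes. Under 200 nt were 42.4% of the held introns and 20.3% of the others. They began with GT in 767 cases and ended with AG in 786, and the longer donor words GTAAG and GTGAG stood at the first 5 bases of 142 (17.8%) and 205 (25.7%). The GC content was 52.0% at the median, against 53.1% for the rest of the transcript. The annotation, not these libraries, sets these features.

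Most held introns would end the reading frame. Of the 701 that lie between coding exons, 606 (86.4%) brought an in-frame stop, at a median of 36 bases into the intron. Of the 95 without a stop, 32 had a length that is a multiple of 3. Introns with a stop had a median of 301.5 nt and those without of 112 nt, and the PTBP1 intron printed above is of the second kind.

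Genes of splicing and RNA processing were described from 7 gene lists: SR proteins, hnRNPs, SR protein kinases, the major and minor spliceosome, decay with the exon junction, and nuclear export. They held 134 members in 60 genes, 41 of them with a whole intron. A share at least 10 points higher was seen in 1 and lower in 1, beside 4.75% and 5.63% over all members. Their median share was 4.07% without Dox and 3.99% with Dox, and 57 had a mean share of at least 5%. The 2 make 3.51% of these 57, beside 15.9% of all members with such a share. They were PRPF39 ENST00000477626, named after its values were seen (23.5% and 36%), and PNN. The minor spliceosome list had no member.

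SR proteins bind exonic enhancers and promote splice site choice. Their list, which includes TRA2A and TRA2B, had 20 members in 9 genes, with a summed TPM of 329 without Dox and 252 with Dox. The median share of these members was 4.85% and 5.97%, and the share was higher with Dox for 8 and lower for 12. The coding sum was also lower with Dox in each of the 9 genes, as in SRSF3 (221 and 177 TPM) and SRSF2 (130 and 93.2). SRSF3 had 4 members with a summed share of 39.6% and 38.8%. Of these, ENST00000620242 was at 107 and 65.3 TPM and ENST00000339436 at 43.8 and 51.8, so the gene's members differed in opposite directions. SRSF2 had 4 members with a summed share of 28.5% and 28.8%.

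TRA2B ENST00000463328, 2780 nt long with 40.2% of its 31-base words its own, was at 18.1 and 9.68 TPM, a fragment ratio of 0.519 (0.460 to 0.586). Its share was 10.8% and 6.70%, and the coding sum was 73.8 and 66.2 TPM. The other TRA2B members lay at 11.7 and 9.05 TPM and at 6.97 and 6.57 TPM. TRA2A ENST00000482395 was at 7.16 and 0 TPM, while TRA2A ENST00000486934, which holds the 176 nt intron printed above, was at 3.05 and 3.35 TPM. Both genes encode splicing activators related to the SR proteins.

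The CLK1 member ENST00000473565, with the introns around exon 4 printed above, was at 11.9 and 12.9 TPM. Its share was 26.8% and 25.2%, the coding sum 19.1 and 26.1 TPM, and the fragment ratio 1.05 (0.940 to 1.18). In estimated fragments it made 46.5% and 42.6% of its gene, with transcripts under 600 nt left out. It was the most abundant of the 4 members in 3 genes of SR protein kinases, and its level was close between libraries. Of its 31-base words, 11 (0.346%) are its own within the gene. Most of its fragments are thus divided from those of other isoforms by the quantifier, and the interval does not cover that division. SRPK1 and PRPF4B, the other genes, had members of 2.09 to 3.78 TPM.

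The hnRNPs, which package nascent RNA and often oppose splice sites, had 29 members in 8 genes, 16 with a whole intron, at 583 and 657 TPM. HNRNPH1 alone had 14 members, the most of any gene, with a summed share of 35.9% and 36.5%. The share was higher with Dox for 10 of the 14 and lower for 4, and 8 held a whole intron. HNRNPH1 ENST00000502904 and HNRNPH1 ENST00000515481 both hold the 92 nt intron printed above, and stood at 11 and 9.87 TPM and at 11.1 and 10.6 TPM. The same intron lies in the less abundant ENST00000521720 (1.11 and 6.19 TPM), ENST00000514731 (3.50 and 5.55) and ENST00000502632 (3.01 and 1.05), which differed more and in both directions. These members overlap, so they are not independent of each other. HNRNPC ENST00000553614, which holds no whole intron, was the most abundant of the list, at 342 and 432 TPM, a share of 28.7% and 32%. The higher sum of the list with Dox lay in this member, and the HNRNPH1 members summed to 145 and 127 TPM. PTBP1 ENST00000590887, with the intron that has no in-frame stop, was at 3.04 and 4.42 TPM, a share of 1.72% and 2.34%.

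In the spliceosome, EFTUD2 ENST00000589825, of a U5 snRNP GTPase, was at 82.3 and 68.7 TPM and held 52.5% and 49.5% of its gene. In decay and the exon junction, RNPS1 ENST00000570051 was at 32.3 and 26.8 TPM, a share of 25.1% and 21%. In nuclear export, THOC2 ENST00000464161, with the 77 nt intron printed above, was at 4.74 and 5.90 TPM, a share of 6.62% and 7.58%. None of these shares was 10 points apart.

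Elsewhere, some of the most abundant members of housekeeping gene lists had high shares. The median share of the list was 4.73% and 2.81% for the proteasome, 1.52% and 1.11% for chaperones and 3.89% and 3.46% for translation factors. It was 13.9% and 13.7% for the mitochondrial ribosome, beside 8.64% and 8.31% over all members. Proteasome genes had 15 members in 11 genes, led by PSMC3 ENST00000531653 at 166 and 170 TPM (57.0% and 63.3%) and PSMC1 ENST00000555679 at 128 and 115 TPM (74.0% and 69.9%). In the mitochondrial ribosome, MRPS34 ENST00000569585 was at 53.3 and 42.9 TPM with a share of 68.9% and 58.7%, the 1 share of 12 members there that was 10 points lower. Among chaperones, CCT7 ENST00000480489, 527 nt long, was at 90.7 and 41.4 TPM beside a coding sum of 389 and 366, and CCT5 ENST00000508451 was at 119 and 107. The translation factor EIF3L ENST00000477256 was at 224 and 229 TPM with a share of 43.0% and 48.3%.

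Among secreted plasma proteins, 38 members in 20 genes summed to 3198 and 2731 TPM, and 11 of them had a mean share of at least 5%. None of the 11 was 10 points apart, beside 15.9% of all members with such a share. TF, transferrin, had ENST00000493011 at 517 and 482 TPM with a share of 16% and 17.7%. The 10 members in 5 glycolysis genes summed to 770 and 1454 TPM, nearly all of it the SLC2A1 member.

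In genes with a coding transcript of at least 2 TPM, the 6 highest mean shares belonged to EEF1A1, RPL14, RAB21, C2orf72, METTL2A and PPP1R16A. RAB21 ENST00000358546, of an endosomal GTPase, was at 44.9 and 52.8 TPM against a coding sum of 7.78 and 7.59, a share of 83.8% and 86.8%. In estimated fragments it made 14.6% and 17.1%, since the RAB21 mRNA listed is 15546 nt long. C2orf72 ENST00000463834 was at 49.2 and 38.7 TPM, a share of 77.3% and 92.2%, though its TPM was lower with Dox. A 579 nt transcript of C2orf72 was at 9.99 and 0 TPM. In fragments, which leave out that transcript for its length, the share was 90.4% and 90.9%. METTL2A ENST00000333483, with a whole intron of 206 nt, was at 19.2 and 18 TPM, a share of 75.2% and 76.3%. PPP1R16A ENST00000528430 was at 32.2 and 32.3 TPM, a share of 73.2% and 76.5%.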

How the data were processed

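Both libraries were trimmed with Trimmomatic and quantified with Salmon against GRCh38.p13, per the submitters' processing notes; their versions and options, and the transcript annotation, were not given in the sources read. The authors deposited 1 table of TPM per transcript, which Salmon scales by effective length, so short transcripts get noisy values and fragments shared by isoforms are divided by a model. Depth was estimated from the steps of low TPM values: 76.5% and 79.6% of 673 values were whole multiples within 0.1.

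Transcripts were matched to GENCODE 29 by identifier without version (161798 of 184844). Among members 2044 had the same version and 17 another. Of the annotated retained-intron transcripts, 1901 had no entry among the TPM values and could not become members. Shares, 2-fold and 1.5-fold classes (pseudocount 1 TPM) and a 10-point threshold were computed with Python 3.11.15, pandas 2.3.3 and numpy 2.4.6, and intervals with scipy 1.17.1. The share code was tested on simulated data.

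Members were named by rule: the 8 highest mean TPM, the 6 highest shares in genes with a coding transcript of at least 2 TPM, the 10 largest share increases and decreases above 0 in both libraries in genes of at least 10 TPM, the 6 highest at 0 in 1 library, the top 2 per list with all SR proteins, SR protein kinases and hnRNPs, the 2 on each side of the threshold, and SAMD4B. The members and the 18 gene lists were chosen with earlier results of these data known. Some items that these rules select are not reported here. The subset with a mean share of at least 5% was added after the values were seen. Alternatives covered the abundance threshold, the denominator, the unit, zeros, the share threshold and the pseudocount.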

Additional observations from a re-analysis of the deposited data

How the results depend on the processing

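Counts of shares at least 10 points higher and lower with Dox (98 and 116) were 195 and 205 at a minimum mean of 1 TPM, 37 and 45 at 5 TPM, 58 and 50 with 2 TPM in each library, 23 and 25 in estimated fragments, 268 and 290 at a threshold of 5 points and 25 and 46 at 20 points. Without members at 0 in 1 library the lower count was 75, and the higher count 76 stayed within 1.5 times. With members of at least 600 nt, an alternative chosen after seeing the data, they were 52 and 55. The percentages of other transcripts for 2 TPM in each library, estimated fragments and at least 600 nt are given above. None is given for the other settings, so those counts have no background here. The 2-fold TPM counts (115 and 150) were 308 and 319 at 1 TPM, 31 and 55 at 5 TPM, 34 and 41 with 2 TPM in each library, 75 and 92 without zeros and 38 and 52 with a pseudocount of 5 TPM. The members' part of the library (3.72% without and 3.64% with Dox) was 3.97% and 3.89% at 1 TPM, 3.36% and 3.29% at 5 TPM, 3.57% and 3.53% with 2 TPM in each library, 1.57% and 1.51% of estimated fragments, 3.67% and 3.62% without zeros, and 3.70% and 3.62% where another transcript of the gene had at least 1 TPM. In these alternatives the cause was not tested beyond the smaller or larger number of members each one leaves. In all, 17 values stayed close, among them that count of 76 and every median share difference: counts within 1.5 times, and medians within an interval around the main median. That interval treats the members as independent, though they share 2 libraries and overlap within genes, so it sorts values and tests nothing. The median differences themselves ran from -0.036 to 0.005 points. The part of the library has no spread to set it against, so each value of it that differed at all is printed. The denominator alternative was not applied to the part of the library, which has no denominator of that kind.

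No paired analysis was possible because there is 1 library per group. Depth limits the low and short members most: 1 fragment on a 600 nt transcript is worth about 0.229 TPM without Dox and 0.183 with Dox.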
